A study of Arabidopsis thaliana with 204 samples.

Results

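The data described here are the transcriptomes of the leaf tip of Arabidopsis thaliana kept in white light (WL) from 40 to 300 min into the experiment, without any far-red treatment. They comprise 35 RNA-sequencing libraries, chosen from the labels alone as those of the tissue leaf tip and the treatment WL, beside 169 other libraries of the study, and they cover 9 time points: 40, 60, 80, 100, 120, 140, 160, 180 and 300 min. Each time point has 4 libraries, except 40 min, which has 3. The study compared WL with far-red light given at the leaf tip, sampling the leaf tip as well as the lower (abaxial) and upper (adaxial) side of the petiole base. None of the far-red libraries is used here, so the comparison is one of time within plants that stayed in WL.

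All plants were wild type, accession Col-0, 28 days old, and were raised in short days with 9 h of light and 15 h of darkness, at 20 °C and 70% humidity. The light was WL of 130 to 150 µmol photosynthetically active radiation per m2 and s with a red to far-red ratio (R/FR) of 2.0, against 0.05 in the far-red treatment. A library was made from selected leaves of 13 plants, so each value is an average over pooled plants, and the 4 libraries of a time point are labelled as biological replicates. Per the study's methods every experiment began in the morning, at a fixed hour soon after the lights came on. The hour of the day, the time spent in the light and the time since the start of the experiment advanced together and cannot be told apart.

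As background, the plant circadian clock is a set of transcription factors that repress each other in turn through the day. The MYB factors CCA1 and LHY peak at dawn and repress evening genes by binding a short promoter sequence, the evening element. The pseudo-response regulators PRR9, PRR7, PRR5 and TOC1 follow in sequence from morning to evening and repress CCA1 and LHY, and ELF3, ELF4 and LUX form the evening complex, which represses PRR9 among others. Through these factors the clock times starch turnover, photosynthesis genes, cold-regulated genes, hormone signalling and growth in the leaf.

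The libraries held between 1027576 and 4308756 reads on genes (median 1807196), with 18596 to 20698 genes detected per library, and the values are read counts divided by 1 size factor per library, called normalized counts below. At 60 min the size factors lay between 0.437 and 0.719 and at 300 min between 0.693 and 0.820, so the libraries at 60 min were the shallower ones. The summed normalized counts of 6 mesophyll genes, such as those of Rubisco and carbonic anhydrase, averaged 114084 in the leaf tip at 60 min against 28498 on the abaxial and 54383 on the adaxial side of the petiole, and those of 5 xylem genes averaged 130 against 364 and 507. Root genes (3 listed) were near 0, at a sum of no more than 1.86 in any leaf tip library at 60 or 300 min. In a principal component analysis the first component (18.23% of the variance) put the means of the time points in the order of time, with the libraries of 40, 60 and 80 min intermingled. The libraries lay between −39.9 and −31.3 at 60 min and between 68.8 and 74.9 at 300 min, and 1 library, replicate 1 at 40 min, stood apart on the second component (5.68% of the variance).

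The letters in front of some clock genes are given as a description. The evening element is known as a sequence that CCA1 and LHY bind, and binding was not measured here. The 300 bases before the annotated start of the gene are shown for 4 clock genes, 1 of which was high early and 3 of which were high late, from the RefSeq assembly TAIR10.1, in the direction of the gene. Capitals mark the evening element AAAATATCT, which reads AGATATTTT on the other strand, and the G-box CACGTG, a site of light-signalling bZIP and bHLH factors that reads the same on both strands. The CCA1 window is chr2:19245291-19245590 (plus strand), that of TOC1 is chr5:24674663-24674962 (plus), that of FKF1 is chr1:25508339-25508638 (plus) and that of GRP7 is chr2:9266558-9266857 (minus).
CCA1: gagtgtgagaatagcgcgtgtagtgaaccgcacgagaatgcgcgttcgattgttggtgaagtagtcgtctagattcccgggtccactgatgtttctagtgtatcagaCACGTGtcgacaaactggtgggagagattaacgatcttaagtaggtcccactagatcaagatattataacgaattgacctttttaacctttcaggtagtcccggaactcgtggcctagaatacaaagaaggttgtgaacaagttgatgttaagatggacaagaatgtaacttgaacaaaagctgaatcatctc
TOC1: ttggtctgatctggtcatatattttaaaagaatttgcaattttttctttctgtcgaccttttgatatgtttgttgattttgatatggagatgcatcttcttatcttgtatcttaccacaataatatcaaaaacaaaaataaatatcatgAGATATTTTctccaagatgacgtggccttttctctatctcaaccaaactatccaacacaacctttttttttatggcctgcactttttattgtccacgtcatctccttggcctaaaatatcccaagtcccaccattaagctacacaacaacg
FKF1: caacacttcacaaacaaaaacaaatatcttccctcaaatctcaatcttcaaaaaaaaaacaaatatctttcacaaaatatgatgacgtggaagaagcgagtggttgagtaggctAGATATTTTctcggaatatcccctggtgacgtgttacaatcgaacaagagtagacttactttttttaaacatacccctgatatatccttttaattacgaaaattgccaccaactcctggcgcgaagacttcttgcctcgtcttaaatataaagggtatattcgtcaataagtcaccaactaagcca
GRP7: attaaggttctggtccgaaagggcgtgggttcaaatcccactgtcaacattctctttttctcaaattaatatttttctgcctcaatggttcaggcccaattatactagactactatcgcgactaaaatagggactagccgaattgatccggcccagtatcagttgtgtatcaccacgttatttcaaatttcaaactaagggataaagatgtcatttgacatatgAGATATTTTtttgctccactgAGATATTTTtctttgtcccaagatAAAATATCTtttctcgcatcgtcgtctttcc

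The window of CCA1 held 1 G-box, those of TOC1 and FKF1 held 1 evening element each, and that of GRP7 held 3. The genes shown do not stand for their whole lists. An evening element was found in 5 of the 12 day and evening clock genes and in 5 of the 20 clock output genes. PRR3, GI, ELF3 and ELF4 of the first list, which rose, had none in this window. The same held for CDF5, PIF3, COR28 and JMJD5 of the second list, which also rose. The windows of COL2 and RVE7, which fell, held 1 each. A G-box was found in 7 of the 14 morning clock genes. Across the 19088 tested genes that have such a window, 2.98% held an evening element. The share was 7.84% among the 2208 that rose from 60 to 300 min, 22.8% among the 114 that rose by over 3 on the log2 scale, and 2.01% among the 2586 that fell. The G-box was found in 7.98% of all windows, in 10.2% of those of genes that fell in 25.9% of the 58 that fell by over 3, and in 14.9% of the 114 that rose by over 3. Another sequence, the CCA1-binding site AAAAATCT, was found in 8.10% of all windows and in 10.3% of those of genes that rose. Matches were counted on both strands, the letters of different motifs may overlap, and 545 of the gene models start at the start codon, so that their windows hold leader sequence. A match describes the letters only, and none of these shares was tested.

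The main question was which genes differed in level between 300 and 60 min. Of 19963 genes tested, 2278 were higher at 300 min (11.4%) and 2664 were lower (13.3%), by limma on log2(normalized count + 1) with Benjamini-Hochberg adjusted p below 0.05. Of these, 1064 were higher and 1089 were lower by over 1 on the log2 scale, 116 were higher and 62 lower by over 3, and the median over all genes was −0.0033. Most of the listed genes of the morning clock, photosynthesis, nitrate and sulfate assimilation and photoprotection were lower at 300 min. Most of the listed evening clock, starch breakdown and cold-regulated genes were higher. Where genes overlap on the chromosome, reads cannot be assigned with certainty, since the counting is not stated to use strand. Among the genes given values below, this holds for RVE1, LNK1 to LNK4, FKF1, LKP2, ELF3, LUX, BOA, CDF5, CO, COL1, COL2, PIF1, PIF7, CAT2, CHS, AT1G56300, AT4G33467, SBE2.1, SS2, PHS2, ASN1, LHCB2.3, RCA, GUN4, CRD1, APR2 and COR15B, for the pair AT5G23235 and AT5G23240, and for the pair PORB and AT4G27450.

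The number of called genes against 60 min grew with time. It was 195 at 40 min (56 higher and 139 lower), 2 at 80 min, 128 at 100 min, 566 at 120 min, 1212 at 140 min, 1881 at 160 min and 2450 at 180 min, before the 4942 at 300 min. At 80 min both calls were of higher genes, and 1475 genes had an unadjusted p below 0.05. All of these comparisons share the 4 libraries at 60 min. The count at 40 min, where replicate 1 stands apart, ranged from 11 to 249 over the alternative settings, and the one at 180 min from 1473 to 2596.

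**Figure D1:**
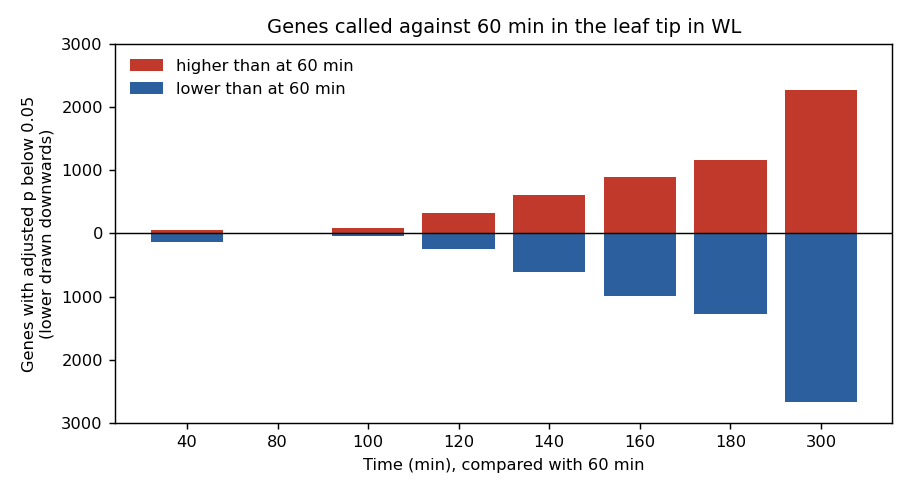
Number of genes with an adjusted p below 0.05 (y axis) at each time point compared with 60 min (x axis, min, evenly spaced bars) in the leaf tip in WL, with genes higher than at 60 min drawn upwards in red and genes lower drawn downwards in blue. The bars grow from 2 genes at 80 min to 2278 higher and 2664 lower genes at 300 min, in similar numbers each way.

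Of the 14 morning clock genes listed, 11 fell between 60 and 300 min, 2 rose and 1 was not called, with a median log2 difference of −2.70. CCA1, one of the paired dawn MYB repressors, had 539, 597, 525 and 620 normalized counts in the 4 libraries at 60 min and 9.75, 17.3, 14.9 and 16.9 at 300 min. Every early library was far above every late one, and the log2 difference was −5.21 (SE 0.13, adjusted p = 1.6e-22). LHY, its partner, had 163, 169, 172 and 156 counts at 60 min and 4.88, 0, 2.71 and 0 at 300 min. Its fall was among the largest of all, at −6.26 (SE 0.36, adjusted p = 4.1e-14), and the late level was at or near the detection limit in all 4 libraries. CCA1 fell at every step, with means of 788 at 40 min, 354 at 100 min and 137 at 180 min.

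The activators of the morning loop fell as well. RVE8, a MYB factor that activates evening genes together with the LNK coactivators, had 126, 123, 139 and 140 counts at 60 min and 1.22, 4.33, 2.71 and 5.19 at 300 min (log2 −5.03, SE 0.24, adjusted p = 4.5e-16). Its relative RVE4 fell less, from a mean of 224 to 70.7 (−1.66, SE 0.14), and RVE1, which links the clock to auxin synthesis, from 32.4 to 2.36 (−3.38, SE 0.39). Of the coactivators, LNK3 had 483, 494, 445 and 549 counts at 60 min and 19.5, 28.9, 13.6 and 23.4 at 300 min (−4.51, SE 0.16), LNK2 fell from a mean of 2784 to 400 (−2.80), LNK4 from 377 to 31.5 (−3.63) and LNK1 from 524 to 231 (−1.18). RVE7 fell from 44.8 to 21.9 (−0.98, SE 0.23), and RVE6 rose from 28.6 to 44.4 (0.65, SE 0.23, adjusted p = 0.035), a call that was lost without replicate 1, 2 or 3 (adjusted p of up to 0.266). RVE2 had between 3.88 and 5.59 counts at 60 min and between 2.60 and 8.14 at 300 min, which overlap, and was not called.

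The morning pseudo-response regulators did not follow CCA1. PRR9 stayed level from 40 to 180 min, with means between 177 and 205 and a slope of 0.04 per h (adjusted p = 0.6), and was then low at 300 min, with 39.01, 21.6, 40.7 and 22.1 counts against 200, 178, 183 and 183 at 60 min (−2.61, SE 0.19, adjusted p = 5.5e-12). PRR7 climbed from a mean of 775 at 40 min to 1606 at 180 min. At 300 min it had 1292, 1319, 1172 and 1232 counts, all above the 801, 926, 993 and 942 at 60 min (0.46, SE 0.08, adjusted p = 1e-04) and all below the 1456 to 1809 at 180 min, a step that was not tested. PRR7 and RVE6 were the 2 members of the morning list that rose.

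Of the 12 day and evening clock genes, 9 rose, 1 fell and 2 were not called, with a median log2 difference of 3.81. PRR5, the afternoon repressor, had 0, 0, 0 and 5.59 counts at 60 min and 388, 410, 351 and 323 at 300 min. The libraries at 60 min held 3 reads of it in all, which gives a ratio of 271 with a counting interval of 92.3 to 1314 (95%, exact), and its adjusted p was 1.6e-12. PRR3, a regulator that stabilises TOC1, was at 0 in all 4 libraries at 60 min and had 274, 270, 264 and 263 counts at 300 min, at least 47.8-fold higher when 3 reads per library are taken as the limit of detection. TOC1 itself was present early, with 29.1, 11.4, 19.5 and 31.7 counts, and had 434, 391, 343 and 437 at 300 min (4.16, SE 0.27, adjusted p = 3.9e-13).

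The photoperiod blue-light receptor FKF1 was at 0 in all 4 libraries at 60 min and had 324, 291, 305 and 257 counts at 300 min, at least 52.5-fold higher. GI, its partner in the regulation of flowering time, started from 58.2, 29.7, 26.4 and 29.8 counts and reached 299.9, 267, 245 and 306 (2.99, SE 0.19, adjusted p = 4.4e-13). ZTL, a receptor of the same family that is known to be regulated mainly as a protein, went from 103 to 77.5 (−0.40, SE 0.13, adjusted p = 0.019), and was not called without replicate 1 or 3 (adjusted p of up to 0.246). LKP2, the third member of the family, averaged 27.8 and 24.9 and was not called.

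All members of the evening complex rose. ELF3 had 21.3, 13.7, 16.7 and 20.5 counts at 60 min and 196, 182, 229 and 217 at 300 min (3.46, SE 0.15, adjusted p = 3.7e-17). ELF4 was at 0 in all 4 libraries at 60 min and had 257, 147, 164 and 173 at 300 min, at least 33.03-fold higher. LUX, the DNA-binding subunit, had 5.82, 4.57, 1.39 and 5.59 counts and then 207, 130, 126 and 121 (4.86, SE 0.48, adjusted p = 3.1e-09). Its paralogue BOA was at 0 at 60 min and averaged 3.86 at 300 min, too few for a fold. CHE, a TCP factor that represses CCA1, averaged 219 and 192 and was not called. The 3 subunits therefore began from different levels at 60 min, ELF3 detected in each library, LUX in each at a few counts and ELF4 in none.

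**Figure D2:**
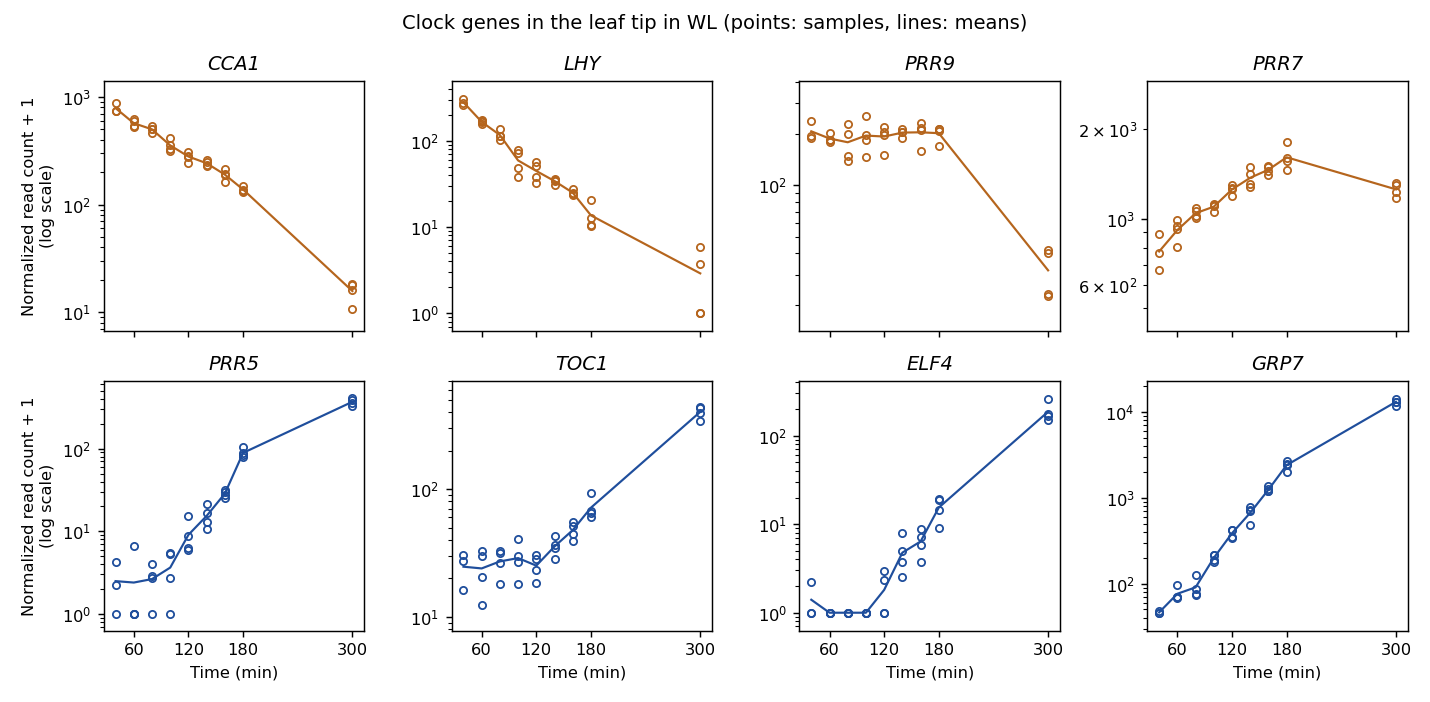
Normalized read count + 1 (y axis, log scale) against time (x axis, min) for 8 clock genes in the leaf tip in WL, with each library as a circle and the mean of a time point as a line, morning genes in brown and evening genes with the output GRP7 in blue. CCA1 and LHY fall from 40 min on, PRR9 is level until 180 min, PRR7 is highest at 180 min, and PRR5, TOC1 and ELF4 climb from low early levels to means of 368, 401 and 185 at 300 min.

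The clock output list was split, with 8 of 20 tested members higher and 10 lower. GRP7, an RNA-binding protein and a classic evening output, had 67.9, 96.0, 68.1 and 68.9 counts at 60 min and 14328, 11743, 13232 and 13205 at 300 min. This was a ratio of 174 and a log2 difference of 7.44 (SE 0.15, adjusted p = 3.4e-24). Its paralogue GRP8 was already at a mean of 403 at 60 min and reached 2646 (2.71, SE 0.11). The cold-regulated clock repressors COR27 and COR28 were at 0 in all libraries at 60 min and averaged 113 and 163 at 300 min, at least 20.1-fold and at least 29.1-fold higher. The demethylase gene JMJD5 stayed between means of 0.228 and 2.29 up to 180 min and had 35.4, 23.1, 27.1 and 27.3 counts at 300 min (3.18, SE 0.46, adjusted p = 3.1e-06). The catalase genes moved in opposite directions, CAT3 from a mean of 1485 to 3903 (1.39, SE 0.10) and CAT2 from 1762 to 324 (−2.44, SE 0.12).

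The flowering-time repressors of the CDF family mostly fell. CDF1 had 144, 171, 114 and 168 counts at 60 min and 34.1, 30.3, 25.8 and 20.8 at 300 min (−2.39, SE 0.15, adjusted p = 1.7e-13), CDF2 fell from a mean of 25.6 to 1.98 (−3.19) and CDF3 from 549 to 212 (−1.37). CDF5 went the other way, from 17.5, 25.1, 26.4 and 18.6 counts to 79.2, 69.3, 57.0 and 90.8 (1.71, SE 0.21, adjusted p = 2.2e-07). CO, the photoperiod regulator they repress, held at most 2.60 counts in any of these 8 libraries, and its target FT was at 0 in all 8. The CO-like genes COL1 and COL2 fell, COL2 from a mean of 506 to 26.1 (−4.28, SE 0.15).

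The phytochrome-interacting factors, bHLH growth regulators that act in shade and at the end of the night, split as well. PIF5 had 632, 578, 569 and 523 counts at 60 min and 256, 219, 264 and 249 at 300 min (−1.22, SE 0.09, adjusted p = 1.5e-11). PIF7 fell from a mean of 586 to 263 (−1.15, SE 0.11) and PIF1 from 142 to 76.4 (−0.87, SE 0.20), while PIF3 rose from 19.6 to 37.6 (0.95, SE 0.33, adjusted p = 0.034). The call of PIF3 was lost without any one of the 4 replicate numbers (adjusted p of up to 0.193). PIF4 had between 566 and 656 counts at 60 min and between 497 and 593 at 300 min, which overlap, and was not called (−0.17, SE 0.10).

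Of the 10 largest rises with no overlap between the groups, 7 were genes of the clock and clock output lists. The others were TPS03 and AT1G07050, a CCT motif family protein, with 5.82, 0, 5.56 and 5.59 counts at 60 min and 1018, 775, 747 and 776 at 300 min (7.63, SE 0.63, adjusted p = 7.5e-11), together with AT5G23235, which overlaps the DNAJ-domain gene AT5G23240 and rose with it (means of 7.54 to 931 and of 6.22 to 655). The terpene synthase gene TPS03 was at 0 in all libraries at 60 min and had 149, 66.4, 138 and 110 counts at 300 min, at least 20.7-fold higher. The 6 others of the 10 largest falls, beside those of CCA1, LHY, RVE8 and LNK3, were AT2G15020, an uncharacterized protein (203.7, 242, 213 and 242 counts, then 6.10, 7.21, 4.07 and 1.30), the light-stress gene ELIP1, the starch synthase gene GBSS1, the myb-like gene AT1G70000 (76.3 to 2.36), the glutaredoxin gene AT1G64500 (272 to 11.7) and the chalcone synthase gene CHS.

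Starch is made in the leaf by day and broken down at night, and its genes differed by direction of the pathway. Of 17 starch breakdown genes, 14 rose and 2 fell, with a median log2 difference of 0.91. GWD1, the glucan dikinase that opens the granule surface for attack, had 316, 331, 320 and 326 counts at 60 min and 1787, 1775, 2135 and 2088 at 300 min (2.58, SE 0.08, adjusted p = 1.8e-19). PWD, the kinase that acts after it, had 52.4, 54.9, 41.7 and 46.6 counts and then 644, 551, 643 and 587 (3.61, SE 0.17, adjusted p = 3.1e-16). The phosphatase SEX4 rose from a mean of 123 to 407 (1.73), the debranching enzyme ISA3 from 64.8 to 601 (3.26), the disproportionating enzyme DPE1 from 84.4 to 344 (2.02) and the cytosolic phosphorylase PHS2 from 455 to 1920 (2.08). No library of the 60 min group reached the level of any 300 min library in these 6 genes, which were named for their small p in this same comparison. The lowest log2 difference in the list was −3.51.

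Of 16 starch synthesis genes, 6 rose and 4 fell, with a median of 0.018, close to that of all genes. The extremes were far apart. GBSS1, the granule-bound synthase that makes amylose, had 167, 194, 140 and 194 counts at 60 min and 7.31, 4.33, 4.07 and 7.79 at 300 min (−4.70, SE 0.18, adjusted p = 8.1e-18). SBE2.1, a starch branching enzyme, had 138, 171, 139 and 143 counts and then 1336, 1245, 1204 and 1273 (3.09, SE 0.11, adjusted p = 7.6e-19). The synthase SS4, which starts granules, rose from a mean of 148 to 383 (1.37), the phosphoglucomutase PGM from 202 to 436 (1.11), and the synthase SS2 fell from 161 to 71.5 (−1.15).

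Of 13 genes known to fall with sugar supply, 8 fell and 3 rose, with a median of −0.87. The list did not fall steadily. Its summed level averaged 961 at 40 min, 1377 at 60 min, 1502 at 120 min and 848 at 300 min. Over 40 to 180 min the slope was positive for 5 members and negative for 1. TPS8 and TPS11, trehalose phosphate synthase family genes, fell from means of 347 to 123 (−1.49, SE 0.11) and of 189 to 91.3 (−1.03, SE 0.19). The asparagine synthetase ASN1 had 15.5, 22.9, 19.5 and 20.5 counts at 60 min and 8.53, 4.33, 10.8 and 7.79 at 300 min (−1.26, SE 0.27, adjusted p = 0.00062). BT2, a regulator induced by sugar deprivation and by the evening clock, rose instead, from 0, 2.29, 5.56 and 0 counts to 42.7, 46.2, 20.3 and 45.4 (4.13, SE 0.63, adjusted p = 7.7e-06). Of 14 sugar-induced genes, 11 were not called, 2 rose and 1 fell, where 11.4% of all genes rose and 13.3% fell. The sucrose exporter SWEET12 rose from a mean of 31.04 to 105 (1.72, SE 0.21).

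Photosynthesis genes fell by small amounts from very high levels. Of 43 nuclear genes of the light-harvesting complexes, photosystems and Rubisco small subunit, 36 fell and none of the others was called, with a median log2 difference of −0.42. Together they held 13.3% of all counts at 60 min and 10.6% at 300 min. The largest fall was that of LHCB2.3, a light-harvesting protein of photosystem II, with 7587, 7660, 7064 and 7550 counts at 60 min and 1726, 1183, 1831 and 1553 at 300 min (−2.26, SE 0.10, adjusted p = 2.1e-16). The Rubisco small subunit gene RBCS2B fell from a mean of 7813 to 3041 (−1.37, SE 0.09), and Rubisco activase RCA from 23451 to 8638 (−1.45, SE 0.11). The paralogues were unequal, since RBCS1A, the most abundant of them, only went from 43265 to 33570 (−0.37, SE 0.08, adjusted p = 0.0011). All 6 mesophyll markers fell, and in such bulk samples fewer cells of a type and less RNA per cell cannot be told apart. Of the other cell markers, 1 of 6 for guard cells fell and 1 rose, 3 of 5 for epidermis fell, 1 of 3 for trichomes and 1 of 5 for phloem fell, and none of the 5 for xylem or the 4 for dividing cells was called. Over all tested genes 11.4% rose and 13.3% fell. The part of cell makeup in these results was not tested.

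Chlorophyll synthesis genes were split, with 6 of 20 higher and 8 lower. HEMA1, which controls the first committed step, had 4057, 3685, 3853 and 4168 counts at 60 min and 983, 778, 1056 and 943 at 300 min (−2.07, SE 0.12, adjusted p = 3.4e-14). The magnesium chelatase subunit GUN5 and its activator GUN4 fell from means of 5538 to 2187 (−1.34) and of 1149 to 342 (−1.76), and the cyclase CRD1 from 4877 to 2318 (−1.08). PORB, the light-dependent protochlorophyllide oxidoreductase that follows them, rose from 1618, 1593, 1472 and 1728 counts to 4831, 4323, 4914 and 4753 (1.55, SE 0.10, adjusted p = 1.5e-13). It climbed at each time point from a mean of 952 at 40 min.

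Photoprotection genes, which protect the photosystems from excess light, and flavonoid genes came next. Of 9 photoprotection genes 7 fell and 1 rose, with a median of −0.96. ELIP1, an early light-induced protein, had 42.7, 59.4, 34.8 and 29.8 counts at 60 min and 2.44, 0, 0 and 0 at 300 min, a ratio of 60.9 with a counting interval of 16.4 to 510 (95%, exact). ZEP, the zeaxanthin epoxidase, fell from a mean of 1296 to 371 (−1.80, SE 0.08), and PSBS, the sensor of heat dissipation, from 4861 to 2497 (−0.96, SE 0.09). Of 16 tested flavonoid genes 7 fell and none rose, and 5 were at the limit of detection at both times. CHS, the first enzyme of the pathway, had 316, 320, 274 and 304 counts at 60 min and 10.97, 7.21, 16.3 and 16.9 at 300 min (−4.52, SE 0.26, adjusted p = 4.6e-14). HYH and HY5, the bZIP factors that activate CHS in the light, fell from means of 62.9 to 6.42 (−3.20) and of 23.05 to 6.43 (−1.97).

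Of 15 nitrate and sulfate assimilation genes, 10 fell and 1 rose, with a median of −0.73. APR2, the key reductase of sulfate assimilation, had 1769, 1451, 1533 and 1535 counts at 60 min and 294, 209, 275 and 239 at 300 min (−2.63, SE 0.09, adjusted p = 9.8e-19). The nitrate reductase NIA2 had 1096, 997, 892 and 1036 counts and then 251, 309, 212 and 257 (−1.97, SE 0.12, adjusted p = 1.6e-13). The nitrate transporter NPF6.3 fell from a mean of 166 to 52.3 (−1.64). The cytosolic glutamine synthetase GLN1.1 was the one that rose, from 157 to 474 (1.59, SE 0.19). Of 13 tested glucosinolate genes, which make defence compounds against herbivores, 1 rose and none fell, where 11.4% of all genes rose and 13.3% fell.

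Growth-related families were counted next. Of 89 tested auxin-responsive genes of the IAA, GH3 and SAUR families, 31 fell and 4 rose, with a median of −0.38, or −0.11 with genes at the limit of detection set to their bound. IAA7, an auxin signalling repressor, had 355, 359, 403 and 352 counts at 60 min and 193, 176, 183 and 187 at 300 min (−0.99, SE 0.10, adjusted p = 4.1e-09). SAUR15, a small auxin-up RNA, fell from a mean of 50.7 to 16.1 (−1.64, SE 0.21) and SAUR78 from 184 to 53.6 (−1.78, SE 0.16). Of 34 tested expansin and XTH genes, which loosen and remodel the cell wall, 12 fell and 3 rose. EXPA1 fell from a mean of 1743 to 638 (−1.46, SE 0.13) and XTH6 from 486 to 87.7 (−2.48, SE 0.14). Of 24 tested genes of gibberellin, brassinosteroid and ethylene metabolism, 4 fell and 1 rose, and the share that fell was near the 13.3% of all genes. The 1 that rose was DWF4, the rate-limiting brassinosteroid enzyme, from 57.5 to 133 (1.21, SE 0.20).

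Most cold- and abscisic acid-regulated genes rose, at a set temperature of 20 °C in all groups. Of 17 tested, 10 rose and 1 fell, with a median of 2.18, or 0.75 with genes at the limit of detection set to their bound, and the summed level went from 1531 to 16821. COR78 (also RD29A), a marker of cold and drought signalling, had 52.4, 59.4, 34.8 and 59.6 counts at 60 min and 2996, 2163, 1966 and 2742 at 300 min (5.56, SE 0.32, adjusted p = 3.5e-14). KIN2 rose from a mean of 389 to 6934 (4.15, SE 0.18), and the chloroplast-protecting proteins COR15A and COR15B from 373 to 3479 (3.21, SE 0.23) and from 113 to 2658 (4.54, SE 0.21). HAB1, a phosphatase that damps abscisic acid signalling, fell from 162 to 36.5 (−2.13, SE 0.13).

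Other stress lists held fewer calls. Of 13 tested heat-shock genes 4 fell and 1 rose, and of 20 tested genes of touch and wounding 3 rose and 1 fell. Over all tested genes 11.4% rose and 13.3% fell, and the counts of these short lists were not tested against that. The summed touch and wounding level was between 400.1 and 1248 at 300 min, the latter in replicate 4, and between 366 and 813 at 60 min. The 8 shade markers, which respond to low R/FR, had a summed level of 173 at both times, with 1 called in each direction. Of 7 genes often used as references, UBQ10 (1920 to 910), ACT2 (891 to 585) and GAPC2 (2557 to 2047) fell, and the other 4 were not called. GAPC2 was not called without replicate 1, 2 or 4.

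**Figure D3:**
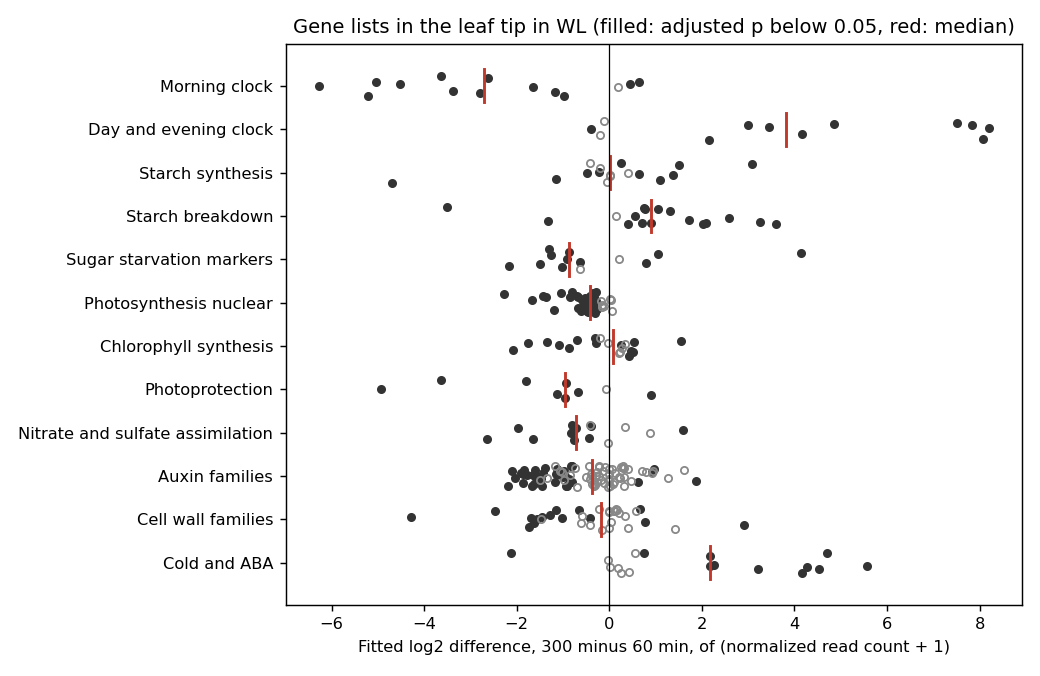
Fitted log2 difference between 300 and 60 min (x axis, log2 of normalized read count + 1) for the tested members of 12 gene lists (y axis) in the leaf tip in WL, with called genes filled, others open, and the median of a list as a red bar. Most morning clock genes lie to the left and most evening clock, starch breakdown and cold-regulated genes to the right, while most photosynthesis genes lie a little below 0, with a median of −0.42.

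**Figure D4:**
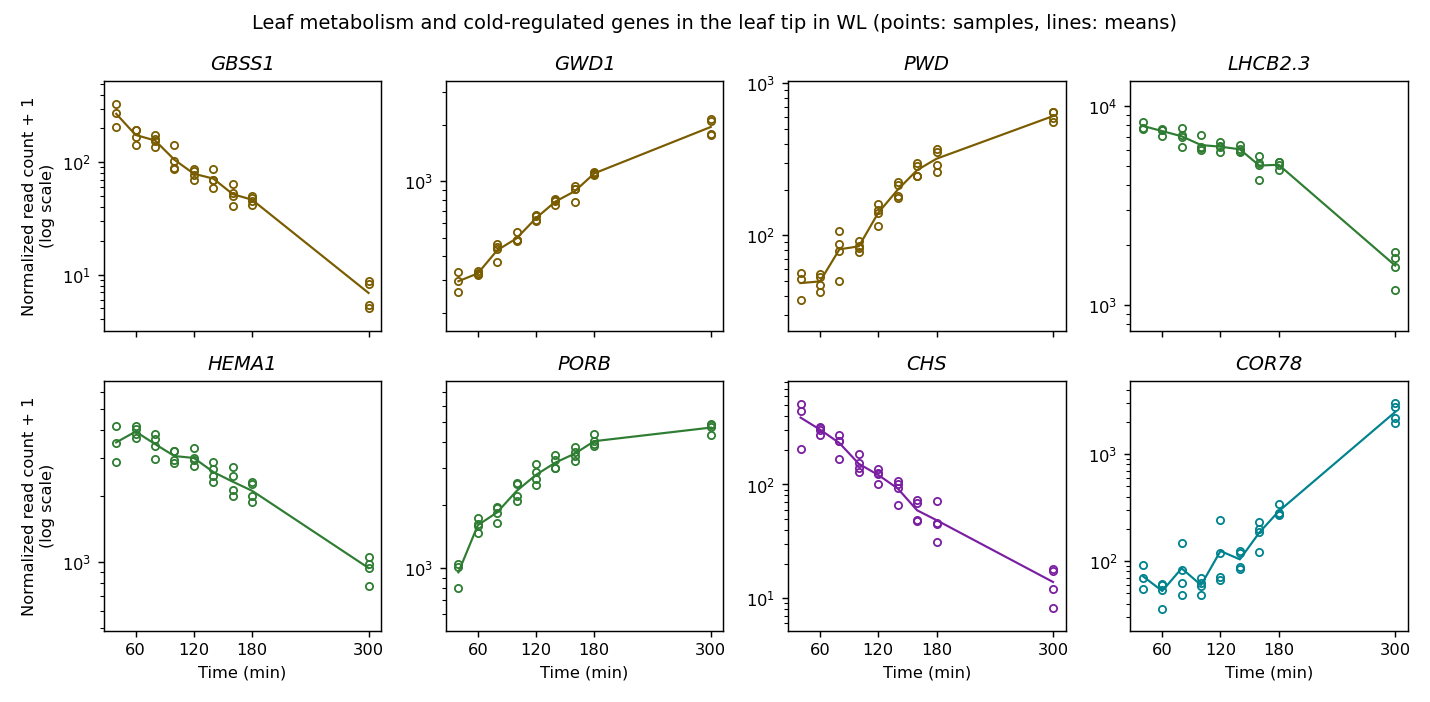
Normalized read count + 1 (y axis, log scale) against time (x axis, min) for 8 genes of starch, photosynthesis, chlorophyll, flavonoid and cold response in the leaf tip in WL, with libraries as circles and means as lines. GBSS1 and CHS fall and GWD1, PWD and PORB rise over the whole window, whereas most of the fall of LHCB2.3 and most of the rise of COR78 come after 180 min.

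The trend between the ends was tested as a slope over the 31 libraries from 40 to 180 min, in log2 units per h and without the 300 min samples. It was positive for 2240 genes (11.2%) and negative for 2456 (12.3%). The steepest rise was that of AT1G56300, a DnaJ-domain chaperone that went from a mean of 2.61 at 40 min to 248 at 180 min (2.65 per h, SE 0.16, adjusted p = 2.9e-14). GRP7 (2.51 per h, SE 0.07), PRR5 (2.50), AT5G23235 (2.27) and AT5G23240 (2.16) came next. LHY had the steepest fall (−1.79 per h, SE 0.08, adjusted p = 5.3e-18), followed by AT3G28270, a putative transmembrane protein (−1.34), CHS (−1.33), AT3G09450 (−1.23), a fusaric acid resistance family protein whose late level was 0 in all 4 libraries, and RVE1 (−1.13), by the rule that asks for a mean of at least 10.

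When only the libraries from 80 to 180 min were fitted, which share no sample with the comparison of 300 and 60 min, 2701 genes had a slope. Of these, 1935 were also called between 300 and 60 min, 1926 of them in the same direction and 9 in the opposite one. The 1926 are 71.3% of the genes with that slope and 38.97% of the 4942 genes called between 300 and 60 min, where 24.8% of all genes were called between 300 and 60 min and 13.5% had that slope.

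The middle of the window was also set against its ends. The mean of 120, 140 and 160 min was above that of 60 and 300 min for 652 genes (3.27%) and below it for 587 (2.94%). The middle lies closer in time to 60 than to 300 min, so a steady fall on the log2 scale also gives a high middle and a steady rise a low one, and these counts do not separate steady from unsteady change. The lowest middles were those of COR28 (−3.29, SE 0.24), COR27 (−3.12), AT1G07050 (−2.91), FKF1 (−2.84) and LURP1 (−2.44), and the first 4 of these averaged no more than 9.10 counts at any time point up to 160 min. The low middle of LURP1 was not called without replicate 4. The highest middles were those of AT2G15020 (2.17, SE 0.15), DOG1 (1.56), RVE8 (1.42), PRR9 (1.39) and AT4G27450 (1.32), an aluminium-induced protein. DOG1, known for its part in seed dormancy, averaged 18.8 counts at 60 min, 36.4 at 160 min and 4.42 at 300 min. Of the morning clock genes 11 of 14 had a high middle. ASN1 rose at first, with a slope of 0.53 per h (adjusted p = 0.00049, not called from 80 to 180 min alone) and a mean of 38.7 at 180 min, and was at 7.87 at 300 min.

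The same change was set against that in the petiole to see where the leaf tip differed. In the petiole in WL, 32 libraries of each side cover 60 to 300 min. The change from 60 to 300 min was more positive in the leaf tip than in the abaxial petiole for 1176 genes (5.89%) and more negative for 988 (4.95%), and against the adaxial petiole for 616 (3.09%) and 928 (4.65%). Against both sides and with the same sign it differed for 1075 genes, 496 more positive and 579 more negative in the leaf tip. Within the abaxial petiole 1466 genes rose (7.34%) and 2021 fell (10.1%), and within the adaxial petiole 1448 rose (7.25%) and 1435 fell (7.19%). Of the clock lists, 10 of 14 morning genes fell and 9 of 12 evening genes rose in each petiole side. The tissues differ in cell types, and the part of this in the differences was not tested.

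Most genes of the morning and evening clock lists were not called as different in change from the petiole. Against the abaxial side this held for 12 of 14 morning and 8 of 12 evening genes, and against the adaxial side for 9 of 14 and 9 of 12. Of the 20 clock output genes, 7 were not called against each side. Several genes of these lists changed by more in the leaf tip. ELF4 reached 147 to 257 counts in the leaf tip at 300 min, 15.2 to 32.8 in the abaxial and 28.7 to 41.6 in the adaxial petiole, from 0 to 1.08 in all 3 tissues at 60 min. The difference in change was 3.19 (SE 0.46, adjusted p = 9.9e-07) and 2.59 (SE 0.45, adjusted p = 4.2e-05). For GRP7 the differences were 2.12 and 2.29 (SE 0.22 and 0.20), and they came from both ends, since its early level was lower in the leaf tip (67.9 to 96.0) than in the petiole (180.4 to 288). TOC1 (1.81 and 1.57), PRR3 (1.81 and 1.56) and COR28 (2.27 and 2.41) also rose by more in the leaf tip. The difference of PRR3 was not called without replicate 1 or 2 against the abaxial side, nor without replicate 2 or 4 against the adaxial side. COL2 fell by more there (−1.72 and −2.14, SE 0.21 in both), from an early level of 436 to 555 counts against 96.9 to 169 in the petiole, as did LNK4 (−1.15 and −0.98) and CDF1 (−0.93 and −0.88). Against the adaxial side LNK4 was not called without replicate 4, nor CDF1 without replicate 3 or 4. CDF5 rose in the leaf tip and fell in both petiole sides, from 25.8 to 37.8 counts to between 15.2 and 20.8 in the abaxial one (−0.66, adjusted p = 0.025), a difference of 2.37 and 2.98 (SE 0.31 in both).

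PIF4 and PIF5 also differed by tissue. PIF4 rose in the abaxial (0.55) and adaxial petiole (0.53) and was not called in the leaf tip, a difference of −0.72 (SE 0.13, adjusted p = 6e-05) and −0.70 (SE 0.12, adjusted p = 5.7e-05). PIF5 fell in all 3 tissues, by more in the leaf tip (−0.91 and −0.86). Of the 89 auxin-responsive genes, the leaf tip had 4 that rose and 31 that fell, the abaxial side 20 and 4, and the adaxial side 7 and 11, with a median of −0.19 in the last. The difference in change was called as more negative in the leaf tip for 35 and more positive for 3 against the abaxial side. Against the adaxial side it was more negative for 15 and more positive for 3. Over all tested genes 4.95% were more negative and 5.89% more positive against the abaxial side, and 4.65% and 3.09% against the adaxial side. In the leaf tip 24 of the 89 were at the limit of detection at both times. SAUR15 had 37.1, 38.6, 31.1 and 31.99 counts in the abaxial petiole at 60 min and 97.6, 95.4, 74.7 and 98.6 at 300 min, while it fell in the leaf tip, a difference of −3.01 (SE 0.26, adjusted p = 3.9e-12). IAA7 differed by −1.48 and −1.28 (SE 0.15 and 0.12). Among the largest negative differences were ACS4, an auxin-induced ethylene synthesis gene (−4.45 and −2.36), BAS1, which inactivates brassinosteroids (−4.24 and −2.34), AT5G02170, an amino acid transporter family protein (−4.20 and −3.45), PKS4, a phytochrome substrate (−4.07 and −2.98), and KDR, a bHLH protein (−4.00 and −1.56). The difference of ACS4 from the adaxial side was not called without replicate 1, 3 or 4. CHS was not called in the abaxial petiole (−0.56) and fell by 0.79 in the adaxial one, a difference of −3.96 and −3.74.

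Sugar-related genes differed too. ASN1 rose in the abaxial petiole, from 4.21 to 23.2 counts to between 28.7 and 76.6, and fell in the leaf tip, a difference of −3.65 (SE 0.64, adjusted p = 3.6e-05). Of the 13 sugar starvation genes, 7 were more negative and 2 more positive in the leaf tip than in the abaxial petiole. Against the adaxial petiole 6 were more negative and 0 more positive. Over all tested genes 4.95% were more negative and 5.89% more positive against the abaxial side, and 4.65% and 3.09% against the adaxial side. SBE2.1 rose by more in the leaf tip (1.18 and 1.08, SE 0.13 in both). PORB rose by less there (−1.78 and −1.49), from a higher early level, and COR78 rose by more (3.61 and 3.18, SE 0.37 in both), from a lower one.

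The largest positive differences were those of TPS03 (6.40 and 5.64), LURP1 (5.24 and 4.26), RLP38 (4.93 and 3.18), ACD6 (4.63 and 3.55) and the uncharacterized AT4G33467 (4.51 and 2.98). TPS03, a terpene synthase, reached no more than 2.85 counts in any petiole library at 60 or 300 min. ACD6, an ankyrin protein that promotes salicylic acid-dependent defence, had 485, 551, 858 and 404 counts in the leaf tip at 60 min and 2900, 2847, 2782 and 2882 at 300 min (2.37, SE 0.27, adjusted p = 6.8e-08), while it fell in the abaxial (−2.26) and adaxial petiole (−1.18). LURP1, a gene induced by pathogens, had 146, 43.4, 332 and 214 counts at 60 min and 1546, 1444, 1181 and 1430 at 300 min (3.25, SE 0.77, adjusted p = 0.0018), and fell in the abaxial petiole (−1.997, adjusted p = 0.0083). The receptor-like protein gene RLP38 had 13.6, 11.4, 13.9 and 9.31 counts and then 112, 80.8, 71.9 and 108. Before 300 min LURP1 varied between replicates, from 74.6 to 645 at 180 min, and PR1, a salicylic acid marker looked at after its values were seen, had 924 counts in replicate 1 at 40 min, 227 in 1 library at 80 min, 222 in 1 at 160 min, 219.9 in 1 at 180 min, and at most 29.2 in the remaining libraries.

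**Figure D5:**
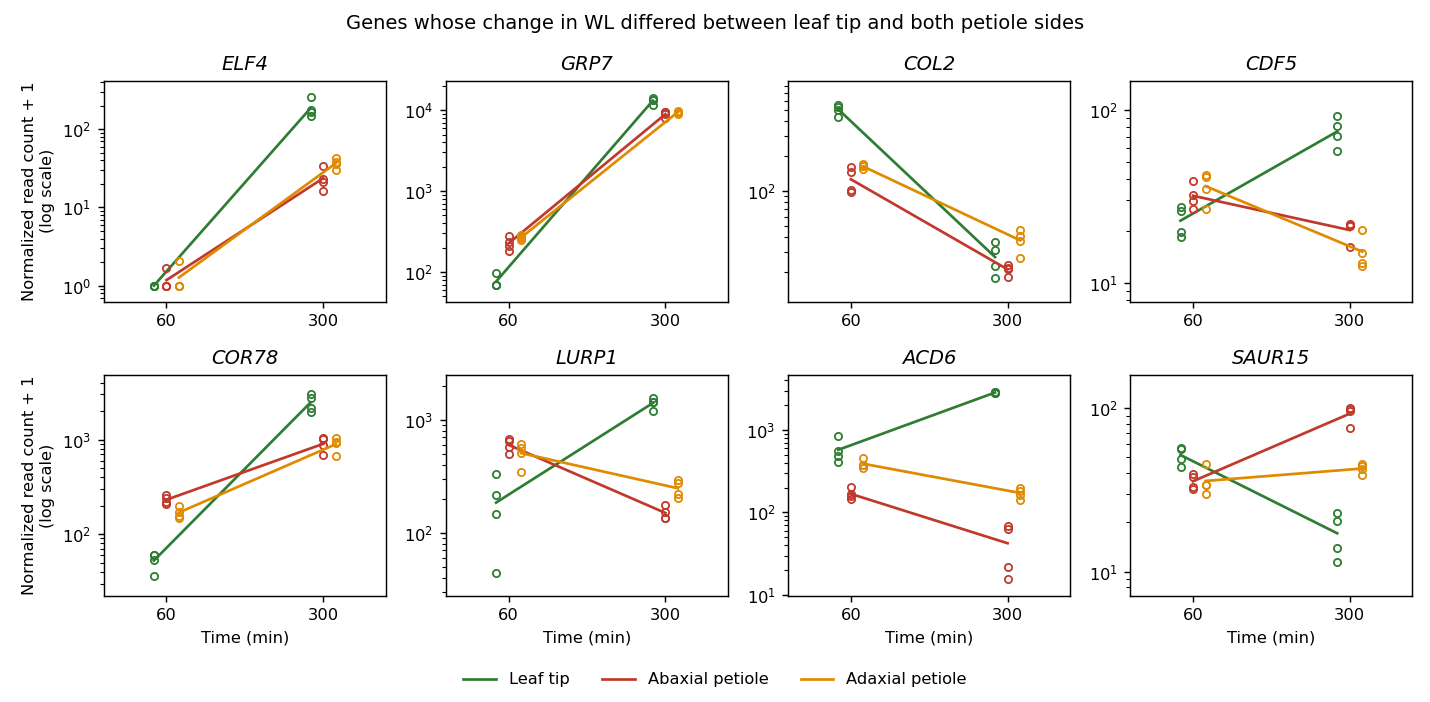
Normalized read count + 1 (y axis, log scale) at 60 and 300 min (x axis) for 8 genes in the leaf tip (green), abaxial petiole (red) and adaxial petiole (orange) in WL, with the 4 libraries of a group as circles and lines joining the means. CDF5, LURP1 and ACD6 rise in the leaf tip and fall in the abaxial petiole, and SAUR15 does the reverse.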

How the data were processed

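RNA was sequenced by BrAD-seq, a strand-specific 3' method, in 35 leaf tip libraries in WL and in 32 libraries of each petiole side. Per the labels and the submitters' processing notes, reads were checked with FastQC, aligned to the TAIR10 genome with STAR, treated with Picard, counted per gene with HTSeq and normalized with DESeq, without versions being given. The deposited signal is therefore a read count divided by a size factor per library, for 33602 loci and 204 samples, and every value was a whole multiple of 1 read within 0.001, so the whole reads were recovered.

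Differences were tested with limma 3.58.1 in R 4.3.3 on log2(normalized count + 1), for 19963 genes with a mean of at least 1 over all 204 samples, two-sided, with Benjamini-Hochberg adjustment over all of them and a threshold of 0.05. A log2 difference on this scale understates the change of low genes. The fit of 300 against 60 min and of the middle used all 35 libraries with 1 mean per time point, the slope used 31, and the comparisons with each petiole side used 64. Where 1 group was at 0 the fold is a lower bound against 3 reads per library, and with 1 to 3 reads it is a ratio with an exact 95% interval. Depth was 1027576 to 4308756 reads per library, which sets the precision of low values.

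Genes were named by rule: all clock list members, the 10 largest rises and falls between 300 and 60 min (adjusted p below 0.05, mean of at least 10, no overlap), the 5 largest slopes and middles in each direction, the 5 largest tissue differences in each direction, and up to 6 members per list by adjusted p. Members and lists were chosen with earlier results of these data known. Alternatives were pseudocounts of 0.5 and 5, other filters, centring on the median, a replicate block, leaving out replicates, edgeR 4.0.16 and DESeq2 1.42.0 on the recovered reads, other time windows and thinning. Tables were handled in Python 3.11.15 (NumPy 2.4.6, pandas 2.3.3) with SciPy 1.17.1 for intervals, plots were drawn with matplotlib 3.10.9, and the fits were tested on simulated data. Promoter windows came from the RefSeq TAIR10.1 genome. None of the 51 pairs of leaf tip WL libraries of the same time point agreed within sampling noise, and other pairs were not compared.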

Additional observations from a re-analysis of the deposited data

Results flagged for a closer look

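In 20 of the 218 groups of 4 libraries examined, that is the groups at 60 and at 300 min of the genes given a value here, 1 library lay far from the other 3 by Dixon's test. Chance gives about 1 in 20 such groups. The CCT motif gene AT1G07050 was among them at 60 min (0 in replicate 2) and at 300 min (1018 normalized counts in replicate 1). Clock and output genes among them were CDF2 at 300 min (3.89 in replicate 4), GI at 60 min (58.2 in replicate 1), GRP7 at 60 min (96.0 in replicate 2), LUX at 300 min (207 in replicate 1), PRR5 at 60 min (5.59 in replicate 4) and RVE1 at 60 min (42.8 in replicate 4). At 60 min the others were IAA7 (403 in replicate 3), ISA3 (34.3 in replicate 2), KIN2 (469 in replicate 1), SBE2.1 (171 in replicate 2) and XTH6 (548 in replicate 3). At 300 min they were AT5G23240 (720.0 in replicate 2), BT2 (20.3 in replicate 3), ELIP1 (2.44 in replicate 1), HYH (11.5 in replicate 2), RCA (10265 in replicate 3), ZEP (330.4 in replicate 2) and WRKY33, a pathogen- and wound-induced factor (292 in replicate 4 against 71.9 to 87.8).

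For 28 genes whose difference between tissues is described above, the change from 60 to 300 min in the leaf tip differed from that on both petiole sides. This is a tested difference of changes on the log2 scale. The 28 were named for that difference, out of 1075 such genes among the 19963 tested, so they are not a count over all genes given a value. The values against the abaxial side are these. More positive in the leaf tip were PRR3 (1.81), TOC1 (1.81), ELF4 (3.19), CDF5 (2.37), GRP7 (2.12), COR28 (2.27), TPS03 (6.40), LURP1 (5.24), RLP38 (4.93), ACD6 (4.63), AT4G33467 (4.51), SBE2.1 (1.18) and COR78 (3.61). More negative were LNK4 (−1.15), CDF1 (−0.93), COL2 (−1.72), PIF4 (−0.72), PIF5 (−0.91), CHS (−3.96), ACS4 (−4.45), BAS1 (−4.24), AT5G02170 (−4.20), PKS4 (−4.07), KDR (−4.00), ASN1 (−3.65), PORB (−1.78), IAA7 (−1.48) and SAUR15 (−3.01). Both groups share the libraries of the leaf tip.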

How the results depend on the processing

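The direction of every called gene given a value was kept under all alternatives run, and 2 genes that were not called changed sign, RVE2 (−0.017 to 0.55 on the log2 scale without a replicate number, the lowest without replicate 3) and LKP2 (−0.39 to 0.0038, the highest without replicate 2). The 4942 genes called between 300 and 60 min became 2153 when a log2 difference beyond 1 was also asked for, and 3822 to 4116 when a replicate number was left out. The slope was called for 2701 genes in the libraries from 80 to 180 min and for 3290 to 4297 without a replicate number, against 4696. The 1239 genes with a high or low middle became 762 when each library was thinned to the reads of the shallowest, an alternative chosen after seeing the data, and 579 to 788 without a replicate number. The differences from the abaxial petiole (2164 genes) became 1437 to 1580 and those from the adaxial petiole (1544 genes) 931 to 1013 without a replicate number. Leaving out replicates tests fewer samples. RVE6, ZTL, PIF3 and GAPC2 were not called between 300 and 60 min without some of the replicates, ASN1 was not called after thinning, and its slope was not called from 80 to 180 min. The low middle of LURP1 was not called without replicate 4, and the differences of CDF1, LNK4 and ACS4 from the adaxial petiole were each not called without 1 or more of the replicates. The same held for the differences of PRR3 from both petiole sides. By other tools the counts were 5101 genes by edgeR and 4419 by DESeq2 on the recovered reads. With the replicate number as a replicate block, 5047 genes were called between 300 and 60 min. Same-numbered libraries did not deviate together (correlations of 0.012, 0.042, −0.041 and 0.032 between 60 and 300 min), so the numbers were not taken to pair the samples.

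The libraries at 60 min were shallower than those at 300 min, so genes of a few counts at 60 min are the least certain, and a level of 0 there means fewer than about 3 reads per library. The counting intervals cover counting error only. The spread is that between pools of plants.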

Other observations

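A few members of the lists and marker sets counted above, not named there, changed between 60 and 300 min in the leaf tip in WL. TRY, a small MYB protein that inhibits trichome formation, had 44.6, 77.7, 63.9 and 70.8 normalized counts at 60 min and 6.10, 2.89, 8.14 and 7.79 at 300 min (log2 −3.22, SE 0.29, adjusted p = 5.9e-10 by limma), with no overlap. Among heat-shock genes, the chaperone HSP70 fell from a mean of 18.1 to 4.01 (−1.92, SE 0.43) and the factor HSFA2 from 16.4 to 2.68 (−2.57, SE 0.58), while DREB2A, a drought and heat factor, rose from 2.47 to 36.5 (3.66, SE 0.46). ACS10, a member of the ACC synthase family, fell from 251 to 51.9 (−2.26, SE 0.13), and GA20OX1, a gibberellin synthesis enzyme, from 19.9 to 7.23 (−1.36, SE 0.33).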
